A study of Mus musculus with 3 samples.

Results

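The comparison set suprabasal bulge cells of the mouse hair follicle (S) against the CD34-negative cells of the same epidermis (N), across all genes. Its members are the 11575 genes, of 49120 with a symbol, whose mean level over the libraries was at least 1 on the scale used, and 9916 of them are protein coding. The epidermis came from the back skin of C57BL/6 mice, wild type and aged 7 weeks, in the second telogen, the resting phase of the hair cycle. Thermolysin freed the epidermis from the dermis, and the cells were sorted with antibodies against CD34 and the integrin Itga6. S cells carried CD34 and little Itga6, basal bulge cells (B) carried CD34 and much Itga6, and N cells lacked CD34. For each population the RNA of 4 mice was combined and amplified before sequencing, so each population is 1 library, and no difference below has a replicate check or a test.

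The bulge is a niche in the outer wall of the hair follicle where resting stem cells are kept between hair cycles. Its basal layer lies on the basement membrane, while the suprabasal or inner layer faces the club hair and includes cells known to hold the stem cells in rest through BMP and FGF signals. CD34-negative epidermis is a mixture of interfollicular epidermis, upper follicle, sebaceous gland and any immune or nerve-derived cells that live in the epithelium. Wnt signals drive growth of the follicle, and BMP signals are known to keep its stem cells quiet.

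Values are scaled FPKM, fragments per kilobase of transcript per M (mega) mapped fragments, divided by a factor for each library, so levels of different genes can be compared per length. The log2 ratio of S to N was taken after adding a pseudocount of 1, and a gene counts as higher or lower where that ratio was at least 1 in size, which is 2-fold. Depth read from the steps of the values was 36.5 M fragments in N, 31.9 M in S and 33.5 M in B. The counting SD of a 2 kb transcript at a level of 1 was thus 11.7% to 12.5%, and 3.70% to 3.96% at a level of 10, and it leaves out amplification and differences between mice. In sorted cells, fewer cells of a type and less RNA per cell cannot be told apart, which holds for every difference below.

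The 4 genes named as markers of the population were all high in S and low in N. Fgf18, which encodes a growth factor of the inner bulge layer (chromosome 11, 33117430 to 33147400, mm10, ENSMUSG00000057967), was at 282 in S, 0.148 in N and 12.2 in B. Cd34, the surface protein used in the sort (chromosome 1, 194938819 to 194961279, ENSMUSG00000016494), was at 215 in S, 0.201 in N and 144 in B. Krt6a, a keratin of the inner bulge and companion layers (chromosome 15, 101689932 to 101694307, ENSMUSG00000058354), was at 115 in S, 0.549 in N and 72.3 in B. Its near-identical copy Krt6b could share fragments with it. Lhx2, a homeobox transcription factor that keeps follicle stem cells in their niche (chromosome 2, 38339281 to 38369733, ENSMUSG00000000247), was at 56.1 in S, 0.911 in N and 35.0 in B. Cd34, Krt6a and Lhx2 were also high in B, while Fgf18 was far higher in S than in either other library. Itga6 was at 33.1 in S, 115 in N and 49.3 in B, lowest in S, which is the order of the gates within CD34-positive cells.

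The stretches before the starts of 5 genes are shown because these genes stand near the ends of the comparison, 4 towards S and 1 towards N. They are the 250 bases before the RefSeq start (GRCm38.p6), 5′ to 3′ on the strand of the gene, in lower case with capitals for matches to the motifs named further on. Cd34 lies at chr1:194938571-194938820 (+), Fgf18 at chr11:33147401-33147650 (-), Pmp22 at chr11:63128732-63128981 (+), Postn at chr3:54360857-54361106 (+) and Il33 at chr19:29924863-29925112 (+).
Fgf18: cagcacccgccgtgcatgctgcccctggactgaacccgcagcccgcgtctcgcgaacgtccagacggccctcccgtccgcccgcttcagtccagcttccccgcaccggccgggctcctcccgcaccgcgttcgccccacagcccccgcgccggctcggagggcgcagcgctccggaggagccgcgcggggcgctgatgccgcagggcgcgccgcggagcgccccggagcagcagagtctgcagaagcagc
Cd34: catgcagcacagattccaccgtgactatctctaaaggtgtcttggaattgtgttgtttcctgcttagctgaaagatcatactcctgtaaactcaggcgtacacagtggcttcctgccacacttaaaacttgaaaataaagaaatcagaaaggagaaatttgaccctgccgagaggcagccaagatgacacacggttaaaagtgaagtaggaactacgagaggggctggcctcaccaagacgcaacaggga
Pmp22: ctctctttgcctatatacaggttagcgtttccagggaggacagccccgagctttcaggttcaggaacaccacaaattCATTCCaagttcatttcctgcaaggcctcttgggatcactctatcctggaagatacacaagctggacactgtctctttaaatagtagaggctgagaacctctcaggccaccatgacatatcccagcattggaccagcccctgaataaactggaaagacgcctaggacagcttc
Postn: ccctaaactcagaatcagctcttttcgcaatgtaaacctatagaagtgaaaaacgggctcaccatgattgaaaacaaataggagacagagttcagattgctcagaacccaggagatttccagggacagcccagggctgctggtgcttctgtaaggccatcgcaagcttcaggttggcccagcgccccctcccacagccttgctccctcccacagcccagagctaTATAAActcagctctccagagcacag
Il33: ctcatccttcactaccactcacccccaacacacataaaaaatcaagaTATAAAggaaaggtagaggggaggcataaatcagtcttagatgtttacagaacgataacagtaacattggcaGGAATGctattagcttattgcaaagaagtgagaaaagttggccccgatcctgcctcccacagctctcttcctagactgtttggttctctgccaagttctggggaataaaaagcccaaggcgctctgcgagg
The stretch of Fgf18 is 77.2% G or C and holds 37 CpG pairs, whereas that of Cd34 is 46.4% G or C with 6 CpG pairs. So these genes of the S end do not share one base composition. The capitals mark a TATAAA match 26 bases before the start of Postn, a GGAATG match 173 bases before that of Pmp22, and in Il33 a GGAATG match 131 bases and a TATAAA match 203 bases before the start.

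Of all genes, 1107 (9.56%) passed the 2-fold rule as higher in S and 1260 (10.9%) as lower, and the median log2 ratio was 0.02, beside which the counts and medians of the gene lists below stand. The ratio reached 4-fold for 361 higher and 460 lower genes, 16-fold for 56 and 63, and 32-fold for 20 and 24. These numbers depend on how the libraries were scaled. With the values as deposited, 856 genes were higher and 1675 lower, so the share of higher genes among the called ones was 33.8% in place of 46.8%. On equal totals it was 2.50% (223 higher and 8682 lower), and the mitochondrial tRNA gene mt-Tl1 held 71.1% of the deposited total of S while listed at 0 in N and B. On equal totals without mt-Tl1, an alternative chosen after seeing the data, 962 genes were higher and 1356 lower, a share of 41.5%. On the total of nuclear protein-coding genes alone, 1228 were higher and 1148 lower.

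**Figure D1:**
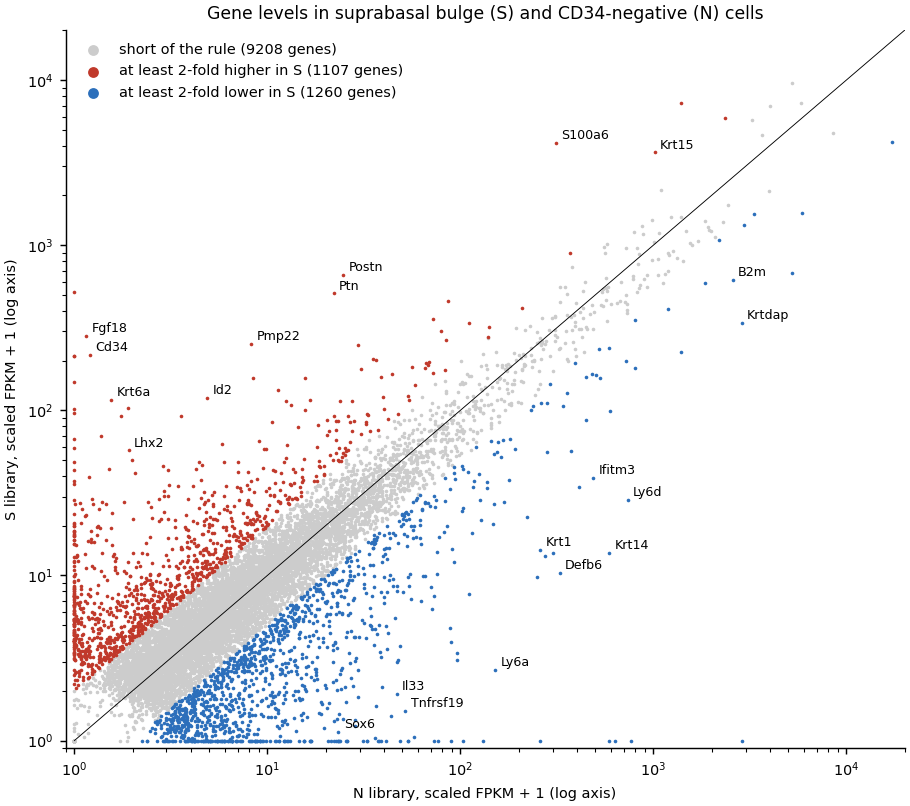
Level of each of the 11575 genes in the S library (vertical axis) against the N library (horizontal axis), as scaled FPKM + 1 on log axes, 1 point a gene and 1 library a side. The line marks equal levels; the 1107 red genes lie at least 2-fold above it and the 1260 blue genes at least 2-fold below it, with Fgf18 and Cd34 at the upper left and Ly6a and Tnfrsf19 at the lower right.

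A minority of these genes were close to absent on one side. Of the 1107 higher genes, 85 were at 10 or more in S and under 1 in N, and 118 are listed at 0 in N. Of the 1260 lower genes, 101 were at 10 or more in N and under 1 in S, and 132 are listed at 0 in S. A gene that entered through its level on one side alone had to differ, so the counts include such genes by construction. The gene nearest above the level limit was Gm36963, with a mean of 1.00008, and the nearest below was Gm44416, with a mean of 0.9995. Nearest to the 2-fold limit were Tsc1 (log2 ratio 1.0005) and Nradd (-1.0004) inside, and Herc2 (0.997) and Stmn1 (-0.9998) outside, the 6 names here being given by their place at the limits.

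The B library is set beside S and N for context. The median level of the higher genes was 7.86 in S, 4.53 in B and 1.35 in N, and that of the lower genes 1.40 in S, 3.38 in B and 8.81 in N. The genes were chosen from S and N, so these medians describe the choice in S and N and were not tested in B.

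Several genes at the S end of the ranking encode secreted or surface proteins. Ptn, which encodes the heparin-binding growth factor pleiotrophin, was at 509.9 in S, 21.1 in N and 318 in B. Postn, for the matrix protein periostin, was at 657 in S, 23.6 in N and 654 in B, about the same in both bulge libraries. Both rest on many fragments, and the ratio of S to N was 24.2 for Ptn (95% counting interval 23.2 to 25.3) and 27.9 for Postn (27.1 to 28.7). Mme, the cell-surface peptidase neprilysin, was at 38.2 in S, 0.189 in N and 25.9 in B, and Angptl2, a secreted angiopoietin-like protein, at 48.9 in S, 0.978 in N and 15.9 in B. All 4 of these genes were lowest in N. Pi15, a secreted protease inhibitor, was at 43.1 in S, 0.510 in N and 8.12 in B, and Il31ra, a receptor chain for an itch cytokine, at 24.4 in S, 0.335 in N and 28.5 in B. Plpp1, a lipid phosphatase of the plasma membrane, was at 28.0 in S, 0.232 in N and 26.6 in B, and Adamtsl4, a microfibril-binding protein, at 22.3 in S, 0.152 in N and 11.1 in B. In Plpp1 and Il31ra the B level was near that of S, while in Pi15 and Angptl2 it was well below.

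Other genes at that end encode intracellular or enzyme proteins. Sh3kbp1, an adaptor of receptor endocytosis, was at 102 in S, 0.896 in N and 17.4 in B. Tgm5, a transglutaminase that cross-links proteins of the cornified envelope, was at 91.3 in S, 2.58 in N and 124 in B, and Calml3, a calmodulin-like protein of keratinocytes, at 157 in S, 7.38 in N and 103 in B. Chat, choline acetyltransferase, which makes acetylcholine, was at 19.7 in S, 0.0832 in N and 7.06 in B. Sgcd, a sarcoglycan of the dystrophin complex, was at 21.8 in S, 0.131 in N and 15.4 in B, and Fam171b, a membrane protein, had 15.4 in S with 8.11 in B and is listed at 0 in N. All 6 were lower in N than in either bulge library. Pdlim3, an actin-binding LIM protein, was at 26.0 in S, 0.00725 in N and 7.53 in B, where the N value is 1 fragment and the ratio has a counting interval of 663 to 146013.

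**Figure D2:**
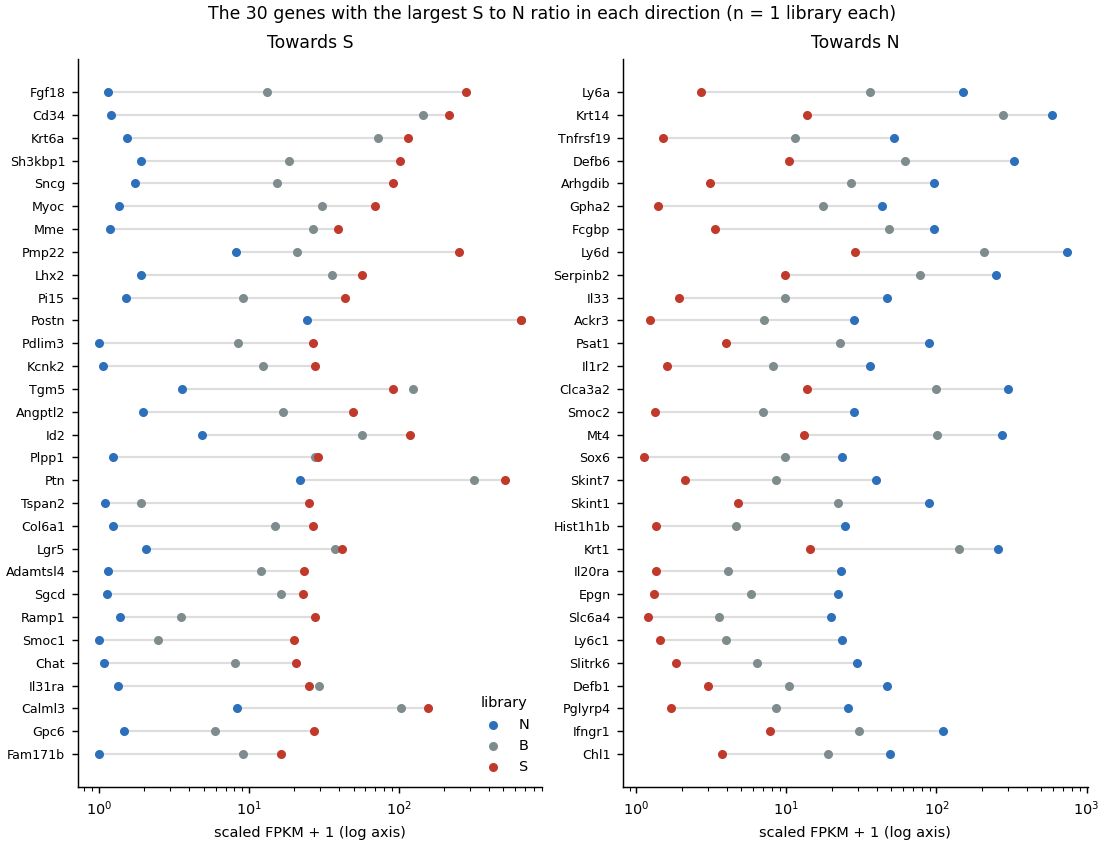
Levels of the 30 protein-coding genes with the largest log2 ratio towards S (left) and towards N (right) among those of at least 10 in the higher library, as scaled FPKM + 1 on a log axis, 1 point per library and gene. Fgf18, Pmp22 and Tspan2 have a grey B point well below the red S point, Tgm5 and Il31ra have one above it, and Ly6a, Krt14 and Tnfrsf19 have one between the S and the blue N point.

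The N end of the ranking held surface antigens, keratins and defence genes. Ly6a, also called Sca-1, a surface antigen found on keratinocytes outside the bulge, was at 1.69 in S, 150.1 in N and 35.0 in B. Krt14, a keratin that fills basal epidermal cells, was at 12.7 in S, 588 in N and 277 in B, so its level was low in S and not in B. The similar genes Krt16 and Krt17 could share fragments with Krt14. Krt5, the usual partner of Krt14, was at 959 in S, 818 in N and 810.3 in B, with a log2 ratio of 0.23. Arhgdib, an inhibitor of small GTPases known from blood cells, was at 2.08 in S, 95.1 in N and 25.8 in B, and Gpha2, a glycoprotein hormone subunit, at 0.4003 in S, 42.6 in N and 16.7 in B. In all of these but Krt5 the S level was a small share of the N level. Fcgbp, a mucin-like binding protein for antibody, was at 2.37 in S, 95.5 in N and 47.1 in B, and Clca3a2, a chloride channel regulator, at 12.7 in S, 300.3 in N and 98.7 in B. Psat1, an enzyme of serine synthesis, was at 2.95 in S, 88.3 in N and 21.8 in B. Slc6a4, the serotonin transporter, was at 0.194 in S, 18.7 in N and 2.57 in B, and Slitrk6, a membrane protein that shapes nerve growth, at 0.837 in S, 28.5 in N and 5.40 in B. Chl1, a cell adhesion molecule, was at 2.72 in S, 47.8 in N and 17.8 in B. Apart from Krt5, each of these genes was lowest in S and highest in N, with B between.

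Skint genes, which encode immunoglobulin-like surface proteins known to shape skin gamma-delta T cells, were counted as a family after their values were seen. Of 11 measured Skint genes, 8 were lower in S and 1 higher, with a median log2 ratio of -2.05. Skint1 was at 3.77 in S, 87.5 in N and 21.2 in B, and Skint7 at 1.10 in S, 38.3 in N and 7.46 in B, the 2 with the largest ratios of the family. Skint10 (-1.23) and Skint2 (-1.09) were just past the 2-fold limit as log2 ratios, and Skint4 was higher in S at 45.1 in S, 17.4 in N and 15.4 in B. Skint copies resemble each other, so the split of fragments among them is uncertain.

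The most abundant genes past the 2-fold rule were ranked by their higher library. S100a6, a calcium-binding protein, was at 4169 in S, 311 in N and 2119 in B, and Krt15, a keratin of bulge stem cells, at 3641 in S, 1014 in N and 1855 in B. Txn1, thioredoxin, was at 355 in S, 70.9 in N and 206 in B, and Tmsb4x, which binds free actin, at 892 in S, 368 in N and 552 in B. Towards N, B2m, the small chain shared by class I molecules, was at 614 in S, 2576 in N and 1297 in B, Krtdap, a secreted protein of differentiating keratinocytes, at 337 in S, 2868 in N and 1134 in B, and Mt2, a metal-binding metallothionein, at 409 in S, 1195 in N and 738 in B. Ctnnb1, for beta-catenin, was at 188 in S, 66.5 in N and 101 in B, and it overlaps Ulk4 (302 against 77.9 in S and N), which the counting could not separate if it used no strand.

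Of the bulge stem cell surface and secreted genes, 15 of 23 measured genes were higher in S and 0 lower, with a median log2 ratio of 2.23. S100a4, a calcium-binding protein, was at 112 in S, 11.5 in N and 1521 in B. S100a4 was higher in S than in N and by far highest in B. Of the inner bulge and companion layer genes, 7 of 12 measured genes were higher in S and 4 lower, with a median log2 ratio of 1.22, with Fgf18 and Krt6a among the higher and Cd59a, which protects from complement, at 7.82 in S, 30.8 in N and 14.0 in B among the lower.

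Transcription factors of the bulge stem cell list were higher in S more often than lower. Of that list, 13 of 26 measured genes were higher in S and 4 lower, with a median log2 ratio of 0.91. Id2 and Id3, inhibitors of DNA binding that answer to BMP, were at 118 in S, 3.89 in N and 55.5 in B and at 112 in S, 22.7 in N and 77.9 in B. Tbx1, a T-box factor of slow-cycling stem cells, was at 12.02 in S, 0.0152 in N and 7.71 in B, and Foxc1, a forkhead factor that holds the stem cells in rest, at 18.7 in S, 2.32 in N and 7.20 in B. Nfatc1, a calcium-regulated factor of quiescent stem cells, was at 27.7 in S, 3.95 in N and 10.5 in B, and Foxp1, another forkhead factor, at 64.2 in S, 8.08 in N and 27.0 in B. Sox9, needed to form and keep the bulge, was at 25.2 in S, 4.24 in N and 17.98 in B, and Tcf7l2, a DNA-binding partner of beta-catenin, at 23.2 in S, 3.81 in N and 17.4 in B. In each of these genes S was the highest library and N the lowest. Hopx, a homeodomain protein of the bulge, was at 182 in S, 55.2 in N and 115 in B, and Nfib at 56.4 in S, 25.3 in N and 74.98 in B, highest in B.

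The 4 lower genes of that list were Gata3, Klf5, Nfia and Grhl3. Gata3, a factor of barrier formation, was at 8.51 in S, 43.6 in N and 13.2 in B, Klf5 at 16.8 in S, 50.1 in N and 25.2 in B, Nfia at 9.61 in S, 25.7 in N and 13.6 in B and Grhl3, which directs barrier formation, at 0.468 in S, 2.96 in N and 1.92 in B. All 4 were lowest in S. Within the nuclear factor I family, Nfib was thus higher and Nfia lower in S.

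Over the wider list of forkhead, Kruppel-like and homeobox factors, 15 of 50 measured genes were higher in S and 6 lower, with a median log2 ratio of 0.60. Of the HOX genes, which keep positional identity along the body, Hoxd8 was at 12.2 in S, 0.0307 in N and 6.00 in B, Hoxc6 at 8.62 in S, 1.34 in N and 5.79 in B, Hoxb7 at 11.5 in S, 2.06 in N and 5.37 in B and Hoxc8 at 5.76 in S, 1.14 in N and 9.02 in B. All 4 were higher in both bulge libraries than in N. Irx2, an Iroquois factor, was at 36.0 in S, 11.1 in N and 36.0 in B, and Klf15 at 8.98 in S, 0.428 in N and 5.95 in B. Against these, Satb1, a chromatin organiser of epidermis, was at 3.44 in S, 36.0 in N and 10.1 in B, and Cux1 at 4.68 in S, 16.6 in N and 5.43 in B.

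Of the other transcription factor families, 26 of 86 measured genes were lower in S and 16 higher, with a median log2 ratio of -0.24. Nfil3, a repressor that acts in the circadian clock and in immunity, was at 47.4 in S, 3.41 in N and 9.84 in B. Mitf, known as the master factor of melanocytes, was at 34.4 in S, 2.08 in N and 16.4 in B. Of the melanocyte marker list, Mitf was the 1 gene of 10 to reach the level limit, and the pigment genes Dct, Pmel, Tyr and Tyrp1 were at most 0.513 in any library, with Mlana at 0 in S and N. Trps1, a GATA-type repressor, was at 8.87 in S, 0.951 in N and 6.14 in B, Maf at 17.9 in S, 5.09 in N and 13.7 in B, and Per1, a clock gene, at 18.8 in S, 5.59 in N and 12.04 in B.

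Several factors of these families were low in S. Sox6, an SRY-type factor, was at 0.127 in S, 22.3 in N and 8.82 in B, and Hlf, a factor of the PAR family, at 0.1002 in S, 6.95 in N and 2.44 in B. Ikzf2, the zinc finger protein Helios, was at 1.53 in S, 22.9 in N and 5.82 in B, and Bhlhe40, a repressor of clock genes, at 0.816 in S, 13.6 in N and 3.49 in B. These 4 factors were highest in N and lowest in S. Tfap2c, a factor of epidermal differentiation, was at 0.887 in S, 11.1 in N and 2.72 in B. Ahr, the aryl hydrocarbon receptor, was at 3.58 in S, 26.1 in N and 6.24 in B, and Rel, an NF-kappaB subunit, at 3.20 in S, 18.4 in N and 5.31 in B. Ovol1, which promotes exit from the cell cycle, was at 1.58 in S, 8.19 in N and 3.71 in B. All 8 held more in B than in S.

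FGF genes were called in both directions. Of the FGF list, 3 of 11 measured genes were higher in S and 3 lower, with a median log2 ratio of -0.56. Beside Fgf18, the ligand Fgf1 was at 9.59 in S, 0.371 in N and 15.02 in B and the receptor Fgfr1 at 7.77 in S, 2.15 in N and 21.3 in B, both highest in B. The 3 lower genes of the list are known as readouts of receptor signalling. Dusp6, a phosphatase that switches off ERK, was at 0.782 in S, 4.02 in N and 3.71 in B, and Spry1, an inhibitor of receptor tyrosine kinases, was at 1.25 in S, 3.75 in N and 2.64 in B, and Etv5, an ETS factor, at 0.302 in S, 2.50 in N and 1.79 in B. Of the EGF receptor list, 0 of 12 were higher and 3 lower, with a median of -0.40. Epgn, the ligand epigen, was at 0.312 in S, 21.2 in N and 4.82 in B, Hbegf, another ligand, at 2.21 in S, 6.69 in N and 3.02 in B, and Lrig1, which restrains the receptor and marks upper follicle stem cells, at 8.97 in S, 34.7 in N and 10.8 in B.

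Of the BMP and TGF-beta list, 12 of 35 measured genes were higher in S and 3 lower, with a median log2 ratio of 0.34. Antagonists and a ligand were higher together. Grem1, a secreted BMP antagonist, was at 12.7 in S, 0.393 in N and 33.3 in B, and Nog, for noggin, had 4.02 in S with 1.19 in B and is listed at 0 in N. The ligand Bmp6 was at 3.77 in S, 0.0435 in N and 0.399 in B, while the ligand Bmp4 was at 0.362 in S, 12.7 in N and 3.30 in B, so the 2 ligands went in opposite directions. Smad9, an intracellular BMP effector, was at 5.38 in S, 0.103 in N and 1.79 in B, and Id1 at 20.9 in S, 4.25 in N and 21.8 in B. The co-receptor Tgfbr3 was at 0.659 in S, 5.35 in N and 1.63 in B, and the receptor Tgfbr2 at 2.00 in S, 5.15 in N and 2.83 in B. Latent TGF-beta binding proteins Ltbp2 and Ltbp3 were at 3.03 against 0.519 and 6.83 against 1.84 in S and N.

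**Figure D3:**
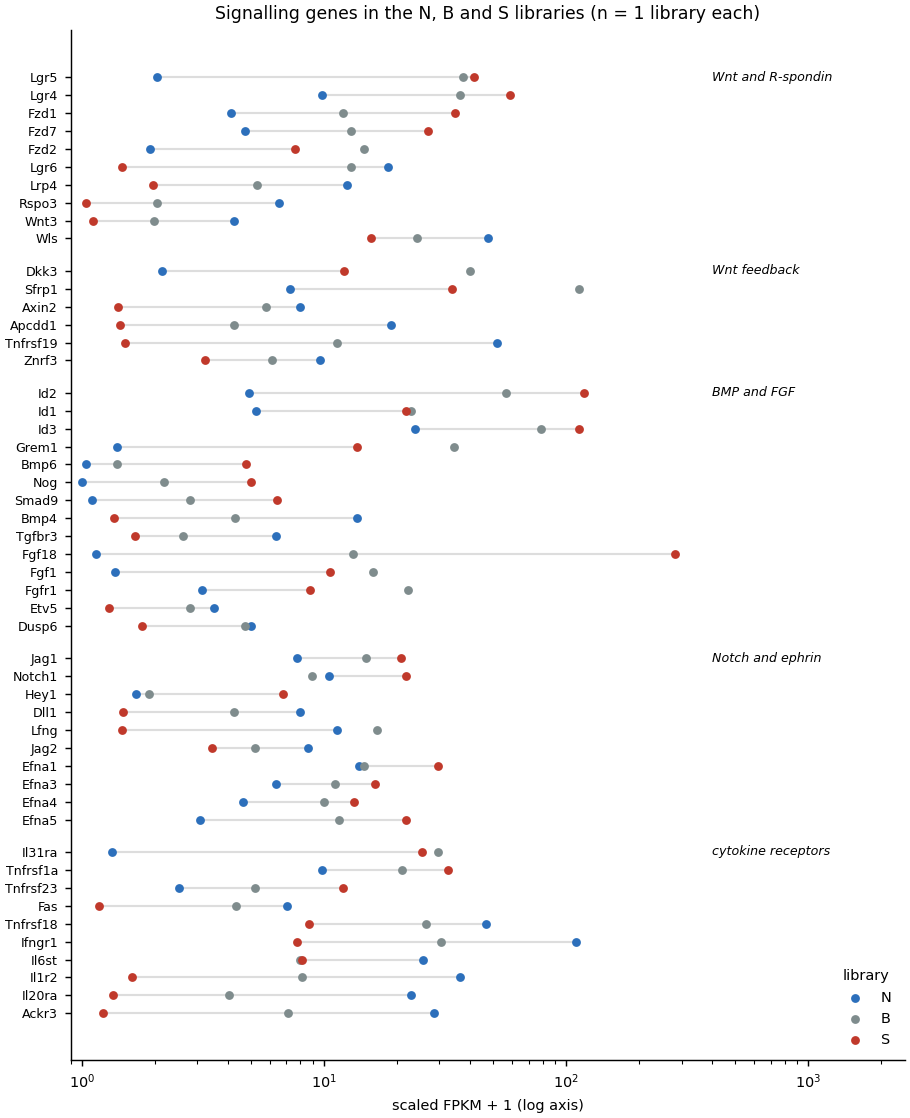
Levels of signalling genes in the N (blue), B (grey) and S (red) libraries as scaled FPKM + 1 on a log axis, 1 point per library, grouped by pathway. Receptors such as Lgr5 and Fzd1 have the S point furthest right, while Axin2, Apcdd1, Tnfrsf19 and the ligand Wnt3 have the N point furthest right.

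Wnt receptors were also divided. Of the Wnt ligands and receptors, 9 of 23 were higher and 9 lower, with a median of -0.15. Lgr5, a receptor for R-spondin and a stem cell marker, was at 40.8 in S, 1.05 in N and 36.5 in B, and its relative Lgr4 at 57.5 in S, 8.83 in N and 35.6 in B, while the third member, Lgr6, went the other way at 0.463 in S, 17.4 in N and 11.9 in B. Among frizzled receptors, Fzd1 was at 33.9 in S, 3.12 in N and 10.96 in B, Fzd7 at 25.9 in S, 3.71 in N and 11.97 in B and Fzd2 at 6.62 in S, 0.922 in N and 13.7 in B. Fzd5 was at 7.44 in S, 1.21 in N and 3.74 in B and Fzd10, in the opposite direction, at 0.204 in S, 3.32 in N and 1.04 in B. The co-receptor Lrp6 was at 21.9 in S, 8.72 in N and 13.8 in B, against Lrp4, which binds Wnt inhibitors, at 0.969 in S, 11.5 in N and 4.29 in B.

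Most measured ligands of the pathway were lower in S, and Wnt4 was not called, at 4.57 in S, 5.19 in N and 3.17 in B. Wls, which carries Wnt proteins to the surface, was at 14.7 in S, 46.5 in N and 23.1 in B. Rspo3, an R-spondin, was at 0.0459 in S, 5.52 in N and 1.04 in B. The ligands Wnt3, Wnt10a, Wnt16 and Wnt7b were at 0.114 against 3.24, 0.0864 against 2.60, 0.167 against 2.35 and 0.672 against 3.51 in S and N. Rspo3 and these 4 Wnt genes were each under 1 in S.

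Of the Wnt inhibitors and targets, 6 of 20 were higher and 5 lower, with a median of 0.31. The secreted inhibitors past the 2-fold rule were higher and most of the called feedback targets lower. Sfrp1, a secreted frizzled-related inhibitor, was at 32.8 in S, 6.21 in N and 112 in B, and Dkk3 at 11.1 in S, 1.15 in N and 39.3 in B, both highest in B. Axin2, a feedback target of beta-catenin, was at 0.418 in S, 7.00 in N and 4.74 in B, and Apcdd1, a membrane inhibitor induced by Wnt, at 0.443 in S, 17.9 in N and 3.26 in B. Tnfrsf19, a TNF receptor family member and Wnt target, was at 0.514 in S, 50.9 in N and 10.4 in B. Znrf3 and Rnf43, ubiquitin ligases that clear Wnt receptors, were at 2.22 against 8.61 and 2.81 against 7.53 in S and N. These 5 were lower in S. Nkd1, another feedback target, went against them, at 2.68 in S and listed at 0 in N.

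Of the Notch list, 3 of 16 were higher and 3 lower, with a median of -0.02. Jag1, a ligand, was at 19.7 in S, 6.73 in N and 14.0 in B, and the receptor Notch1 at 20.8 in S, 9.54 in N and 7.93 in B. Dll1, a ligand of interfollicular cells, was at 0.474 in S, 6.98 in N and 3.26 in B, Lfng, an enzyme that modifies Notch, at 0.465 in S, 10.4 in N and 15.6 in B, and Jag2 at 2.45 in S, 7.61 in N and 4.20 in B. The target gene Hey1 was at 5.77 in S, 0.682 in N and 0.893 in B, highest in S. Of the Hedgehog list, 3 of 11 were higher and 0 lower, with a median of 0.08. Gas1, a co-receptor that also slows the cell cycle, was at 29.2 in S, 4.93 in N and 31.3 in B, and Hhip, an inhibitor, at 3.15 in S, 0.0582 in N and 1.03 in B. Of the insulin and IGF list, 3 of 10 were higher and 0 lower, with a median of 0.40, among them Irs2, an adaptor of the insulin receptor, at 12.8 in S, 3.93 in N and 10.6 in B.

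Genes of axon guidance, which also position epithelial cells, went both ways. Of that list, 7 of 31 were higher and 7 lower, with a median of 0.26. Slit3, a secreted guidance cue, was at 22.9 in S, 0.565 in N and 2.38 in B, and Plxna2, a semaphorin receptor, at 43.2 in S, 3.28 in N and 20.03 in B. Efna5, a surface ephrin, was at 20.9 in S, 2.07 in N and 10.5 in B. Against these, the semaphorins Sema3d, Sema3c, Sema3f and Sema5a were at 1.08 against 19.1, 15.9 against 60.5, 0.972 against 9.62 and 0.550 against 6.61 in S and N. Robo1, which binds Slit proteins, was at 0.447 in S, 4.46 in N and 0.947 in B, and Epha2, which binds ephrins, at 0.986 in S, 7.79 in N and 2.22 in B. Slit3 and Robo1, and Efna5 and Epha2, thus differed in direction.

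Measured genes of a list known from nerve and glia were higher more often than lower. Of that list, 13 of 23 measured genes were higher in S and 3 lower, with a median log2 ratio of 1.18. Another 30 of its 53 genes in the data were below the level limit. The list was written with earlier results of these data known, so its count is no independent support. Its most abundant member, Apoe, was at 648 in S and 783 in N, short of the 2-fold rule. Sncg, for gamma-synuclein, was at 91.1 in S, 0.747 in N and 14.5 in B, and Pmp22, a myelin protein, at 253 in S, 7.25 in N and 19.9 in B. Myoc, for myocilin, was at 68.9 in S, 0.371 in N and 29.6 in B, and Tspan2, a tetraspanin, at 24.3 in S, 0.0962 in N and 0.918 in B. These 4 genes were highest in S. Ramp1, which converts the calcitonin receptor-like receptor into the CGRP receptor, was at 26.8 in S, 0.387 in N and 2.54 in B, while that receptor, Calcrl, was at 1.49 in S, 11.3 in N and 7.13 in B. Gfra1, a co-receptor of GDNF-family factors, was at 12.4 in S, 0.132 in N and 10.6 in B, and Nrcam, an adhesion molecule, at 10.1 in S, 0.262 in N and 3.29 in B. Ntrk3, a neurotrophin receptor, was at 4.45 in S and 0.285 in N. Pmp22, Sncg, Tspan2 and Ramp1 were, like Fgf18, far lower in B than in S.

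The marker list of Schwann cells was measured beside these genes, and a part of such cells in the differences was not tested. Of the 12 genes of that marker list, 3 reached the level limit, 1 was higher in S and 0 lower, with a median log2 ratio of -0.36. The list summed to 17.4 in S, 19.5 in N and 11.8 in B. Erbb3 was the most abundant in N (5.80 in S, 11.2 in N and 4.60 in B) and L1cam in S (8.64 in S, 3.27 in N and 3.14 in B). Sox10 and S100b, picked after their values were seen, were at most 0.117, with Sox10 listed at 0 in S.

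Genes of the TNF and interleukin families were lower in S more often than higher. Of the TNF list, 8 of 15 measured genes were lower in S and 4 higher, with a median log2 ratio of -1.13. Tnfrsf1a, the main TNF receptor, was at 31.5 in S, 8.80 in N and 19.997 in B, and Tnfrsf23, a decoy receptor, at 10.97 in S, 1.53 in N and 4.19 in B. Fas, a death receptor, was at 0.176 in S, 6.06 in N and 3.33 in B, Tnfrsf18 at 7.67 in S, 45.7 in N and 25.3 in B, Tnfrsf12a at 8.95 in S, 25.7 in N and 12.3 in B and Tnfrsf4 at 1.87 in S, 12.8 in N and 10.3 in B. The first pair was highest in S and the other 4 highest in N.

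Of the list of chemokines, interleukins and receptors, 21 of 36 measured genes were lower in S and 2 higher, with a median log2 ratio of -1.15. Ifngr1, the receptor of interferon gamma, was at 6.75 in S, 109 in N and 29.4 in B. Il33, an alarmin, was at 0.923 in S, 45.7 in N and 8.85 in B, and Il1r2, a decoy receptor of an interleukin, at 0.611 in S, 35.3 in N and 7.13 in B. Il20ra, a receptor chain for skin cytokines, was at 0.342 in S, 22.0 in N and 3.07 in B. Each of these 4 genes was lowest in S and highest in N. Ackr3 and Ackr4, scavenging chemokine receptors, were at 0.229 in S, 27.4 in N and 6.12 in B and at 6.22 in S, 54.5 in N and 58.1 in B. Il1rn, a natural interleukin antagonist, was at 5.28 in S, 69.8 in N and 18.8 in B. Il34, the ligand that maintains Langerhans cells, was at 6.53 in S, 34.0 in N and 6.41 in B, and Il6ra at 0.758 in S, 12.8 in N and 3.95 in B. The higher genes of the list were Il31ra, given above, and Il22ra1 (4.00 in S and 1.16 in N), the latter picked after its values were seen. The chemokine gene Ccl27b, outside that list, was higher in S at 201 in S, 35.5 in N and 5.49 in B, while Ccl27a, a member of it and a closely related copy, was at 876 in S, 839 in N and 302 in B, so the split of fragments between them is uncertain.

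Of the antimicrobial and barrier defence genes, 10 of 12 measured genes were lower in S and 0 higher, with a median log2 ratio of -2.58. Defb6 and Defb1, beta-defensins, were at 9.37 in S, 326 in N and 60.3 in B and at 1.99 in S, 45.9 in N and 9.39 in B. Pglyrp4, which binds bacterial peptidoglycan, was at 0.702 in S, 24.6 in N and 7.55 in B. Cd55, which protects cells from complement, was at 5.99 in S, 61.3 in N and 15.9 in B, and Clu, the chaperone clusterin, at 1.41 in S, 13.9 in N and 8.74 in B. Rnase4 and Ang, overlapping ribonuclease genes whose fragments may be shared, were at 6.52 against 71.6 and 2.90 against 21.5 in S and N.

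Of the antigen presentation and interferon genes, 12 of 33 measured genes were lower in S and 1 higher, with a median log2 ratio of -0.52. Ifitm3, which blocks entry of viruses, was at 37.9 in S, 486 in N and 247 in B, while its relative Ifitm2 was at 319 in S, 139 in N and 310.4 in B and was the higher gene of the list. Nlrc5, the activator of class I genes, was at 1.54 in S, 14.9 in N and 4.26 in B, and the immunoproteasome subunits Psmb8, Psmb9 and Psmb10 were at 2.18 against 14.1, 4.00 against 18.4 and 3.05 against 9.68 in S and N. H2-D1 and H2-K1, heavy chains of class I molecules, were at 40.1 in S, 124 in N and 58.3 in B and at 57.5 in S, 191 in N and 96.2 in B. The marker list of Langerhans and myeloid cells was measured beside these groups. Of its 19 genes, 9 reached the level limit, 5 were lower in S and 3 higher, and the list summed to 92.8 in S, 72.8 in N and 46.2 in B, with Epcam, also an epithelial gene, the largest in S (55.9 in S and 24.6 in N). Tyrobp, H2-Aa and Cd74 were at 0.928 against 6.13, 4.51 against 13.5 and 3.99 against 6.19 in S and N. In the other direction, Cd68, known from macrophages, had a log2 ratio of 1.36 relative to the median of all genes. Cd207 and Csf1r were at most 0.343 in any library and Ccr7 is listed at 0 in all 3. The part of Langerhans and myeloid cells in the differences was not tested.

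Of the T and NK cell markers, 1 of 16 reached the level limit. Thy1 was at 0.673 in S, 18.3 in N and 4.99 in B, and the next gene, Cd3e, at 0.487 in S, 1.18 in N and 0.292 in B, picked after its values were seen. Of the 8 mast cell, 9 Merkel cell and 13 endothelial markers, 0 reached the limit, and of the 7 red blood cell genes 1 did, with Hba-a2 at 1.91 in S, 0.627 in N and 0.699 in B.

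Genes of contact with the basement membrane formed 2 lists. Of the integrins, 3 of 10 measured genes were lower in S and 1 higher, with a median log2 ratio of -0.17. Itga3, a laminin receptor, was at 1.64 in S, 12.3 in N and 9.63 in B, and Itga6 has been given above, while Itga5, a chain of the fibronectin receptor, was at 2.50 in S and 0.0638 in N and was picked after its values were seen. Of the laminins and basement membrane genes, 4 of 26 measured genes were higher in S and 1 lower, with a median log2 ratio of 0.24. Lamb3, a chain of the main epidermal laminin, was at 75.5 in S, 36.2 in N and 57.4 in B. Smoc1, a calcium-binding basement membrane protein, had 18.9 in S with 1.47 in B and is listed at 0 in N. Its relative Smoc2 was at 0.336 in S, 27.3 in N and 5.96 in B, so these 2 genes went in opposite directions.

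Of the other collagens and matrix genes, 12 of 30 measured genes were higher in S and 9 lower, with a median log2 ratio of 0.41. Col6a1, Col8a2 and Col18a1, collagen chains, were at 25.9 in S, 0.242 in N and 13.9 in B, at 8.37 in S, 0.0469 in N and 6.56 in B and at 12.6 in S, 1.24 in N and 6.94 in B. Fn1, for fibronectin, was at 20.7 in S, 2.31 in N and 1.90 in B, high in S alone, and Ecm1, a secreted skin matrix protein, at 155 in S, 14.7 in N and 144 in B. Ccn2, a matrix protein induced by TGF-beta and YAP, was at 18.6 in S, 2.73 in N and 147 in B, while its relative Ccn1 was at 7.67 in S, 53.1 in N and 61.3 in B. Thbs1 and Thbs2, thrombospondins, were at 0.227 against 10.2 and 0.178 against 7.88 in S and N, and Efemp1, a fibulin, at 1.28 in S, 20.9 in N and 4.51 in B.

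The fibroblast marker list held 18 genes, of which 5 reached the level limit, 3 were higher in S and 1 was lower, with a median log2 ratio of 1.09. It summed to 36.9 in S, 19.7 in N and 31.1 in B. Col6a1, in that list too, gave most of the S sum, and Thy1, its lower member, gave 18.3 of the N sum. Of its other genes, Col1a1, Col3a1, Pdgfra, Dcn and Lum were at most 0.442 in any library, and Dpt is listed at 0 in S and N. These genes were picked after their values were seen, and a part of fibroblasts in the differences was not tested. Of the 11 pericyte and smooth muscle genes, 2 reached the limit, and Acta2, Tagln, Des and Myh11 were at most 0.499.

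Proteases and inhibitors of the matrix were also divided. Of the matrix proteases and inhibitors, 9 of 22 were higher and 5 lower, with a median of 0.16. Timp2, an inhibitor of metalloproteinases, was at 20.8 in S, 1.82 in N and 36.7 in B, while Timp3 was at 2.24 in S, 7.53 in N and 2.86 in B. Plat, tissue plasminogen activator, was at 10.3 in S, 0.614 in N and 1.70 in B, while Plau, the urokinase form, was at 2.94 in S, 9.30 in N and 2.67 in B. So in both pairs the relatives differed in direction. Htra1, a secreted serine protease, was at 0.693 in S, 19.8 in N and 9.64 in B. Of the serpins and other protease inhibitors, 3 of 18 were higher and 4 lower, with a median of 0.33. Serpinb2, an intracellular inhibitor of urokinase, was at 8.81 in S, 249 in N and 77.1 in B, and Serpinb10, which overlaps it, at 1.36 in S and 17.0 in N.

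Heparan sulfate chains on the cell surface bind growth factors. Of the syndecans and glypicans, 5 of 12 were higher and 1 lower, with a median of 0.46. Gpc6, a glypican, was at 26.2 in S, 0.461 in N and 4.94 in B. Sulf2, which trims sulfate from heparan chains, was at 44.8 in S, 1.87 in N and 5.41 in B, and Sdc1 at 84.6 in S, 27.2 in N and 39.8 in B. Gpc6 and Sulf2 were also far lower in B than in S.

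Cell junction and cytoskeleton genes gave the following. Of the junction genes, 10 of 39 measured genes were lower in S and 3 higher, with a median log2 ratio of -0.32. Gja1, a gap junction connexin, was at 3.99 in S, 36.9 in N and 13.5 in B, Dsg1a, a desmosomal cadherin of the upper layers, at 13.4 in S, 89.3 in N and 41.5 in B, and Cldn1, a tight junction claudin, at 65.6 in S, 181 in N and 72.5 in B. Cdh13, an anchored cadherin, was at 58.2 in S, 24.2 in N and 37.6 in B and was higher. Of the actin, myosin and tropomyosin genes, 10 of 47 measured genes were higher in S and 5 lower, with a median log2 ratio of 0.45. Actn1, which cross-links actin, was at 31.4 in S, 1.91 in N and 14.99 in B, and Myh14, a non-muscle myosin, at 12.2 in S, 0.591 in N and 7.05 in B. Flna, a filamin, was at 8.03 in S, 20.9 in N and 23.3 in B, and Cnn2, a calponin, at 1.82 in S, 15.1 in N and 6.35 in B. Of the YAP and TEAD list, 2 of 22 were higher and 5 lower, with a median of -0.13, and Ptpn14, a phosphatase that binds YAP, was at 3.92 in S, 19.9 in N and 8.95 in B.

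Channels and carriers were called in both directions. Of the ion channels and pumps, 12 of 37 measured genes were higher in S and 6 lower, with a median log2 ratio of 0.18. Kcnk2, a stretch-sensitive potassium channel, was at 26.5 in S, 0.0671 in N and 11.4 in B, Kcnma1, a calcium-activated potassium channel, at 14.2 in S, 0.0163 in N and 3.78 in B, and Cacna1c, a calcium channel, at 17.6 in S, 0.221 in N and 3.05 in B. Mcoln3, a lysosomal calcium channel, was at 12.3 in S, 0.0259 in N and 0.528 in B, and Aqp3, which passes water and glycerol, at 132 in S, 10.4 in N and 69.3 in B. Atp1b1 and Atp1b3, partner chains of the sodium pump, were at 0.879 against 9.29 and 37.0 against 178 in S and N. Of the solute carriers, 10 of 28 measured genes were lower in S and 4 higher, with a median log2 ratio of -0.39. Slc29a1, a nucleoside carrier, was at 84.4 in S, 9.58 in N and 49.0 in B, and Slc22a4, a carnitine-related carrier, at 0.316 in S, 10.9 in N and 2.91 in B.

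Every called gene of the division list was lower in S. Of the DNA replication and mitosis genes, 22 of 45 measured genes were lower in S and 0 higher, with a median log2 ratio of -0.9998. Ube2c, which marks mitotic proteins for destruction, was at 0.708 in S, 18.1 in N and 4.98 in B, and Prc1, a spindle midzone protein, at 1.16 in S, 19.0 in N and 3.55 in B. Cdk1, the mitotic kinase, was at 0.3797 in S, 9.05 in N and 2.17 in B, Top2a, which separates chromosomes, at 0.879 in S, 12.6 in N and 3.44 in B, and Mki67, a proliferation antigen, at 0.237 in S, 5.87 in N and 1.73 in B. All 5 were lowest in S, with B between. Upstream, Ccnd1 and Ccnd2, the D cyclins that start the cycle, were at 0.806 in S, 8.86 in N and 6.15 in B and at 1.02 in S, 22.0 in N and 7.01 in B. Of their partner kinases, Cdk6 was at 1.79 in S, 13.3 in N and 5.75 in B. Cdk4 was short of the 2-fold rule, with a log2 ratio of -0.15 relative to the median of all genes. The inhibitor genes Cdkn1b, Cdkn2b and Cdkn1c were at 25.5 against 9.25, 3.17 against 0.796 and 2.04 against 0.369 in S and N, the latter 2 picked after their values were seen. Of the D cyclin and inhibitor list, 4 of 23 were higher and 3 lower, with a median of 0.15. Its most abundant member, the inhibitor gene Cdkn1a, was at 184 in S and 126 in N, short of the 2-fold rule.

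Histone genes named Hist1 to Hist4 were counted after their values were seen, and of 42 measured 33 were lower in S and 0 higher, with a median log2 ratio of -1.64. On chromosome 13 lay 3 runs of neighbouring genes of the Hist1 cluster that were all lower in S, with 11, 5 and 8 genes. Hist1h1b, a linker histone, was at 0.348 in S, 23.6 in N and 3.59 in B, and Hist1h2bk at 0.326 in S, 11.3 in N and 0.585 in B. Their transcripts carry no poly(A) tail and many are near-identical, so the split among copies is uncertain.

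Of the spinous and granular list, 11 of 25 measured genes were lower in S and 3 higher, with a median log2 ratio of -0.82. Krt1 and Krt10, the keratin pair of spinous cells, were at 13.3 in S, 258 in N and 140.2 in B and at 55.9 in S, 372 in N and 233 in B. Casp14, a protease of cornification, was at 2.39 in S, 11.05 in N and 5.46 in B, and Abca12, the lipid carrier of lamellar bodies, at 3.21 in S, 24.6 in N and 11.7 in B. Sbsn, for suprabasin, was at 460.2 in S, 84.9 in N and 122 in B, and with Tgm5 and Calml3 it made up the higher genes of the list. Of the keratins, 8 of 15 measured genes were lower in S and 5 higher, with a median log2 ratio of -1.13. Relative to the median of all genes, that keratin median was -1.15, and it was 0.0057 without the level filter and -0.50 on equal totals. Krt24 was at 4.88 in S, 0.262 in N and 46.4 in B, Krt75, a companion layer keratin, at 5.25 in S, 0.0867 in N and 1.49 in B, and Krt80 at 54.1 in S, 23.5 in N and 22.0 in B. Krt17, of the follicle sheath, was at 13.6 in S, 40.0 in N and 41.3 in B, and Krt77 at 35.8 in S, 136 in N and 108 in B.

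Of the upper follicle and junctional zone list, 12 of 15 measured genes were lower in S and 0 higher, with a median log2 ratio of -1.84. Ly6d and Krt79, which mark the upper follicle, were at 27.6 in S, 736 in N and 206 in B and at 2.20 in S, 37.8 in N and 9.85 in B. Of the interfollicular basal list, 10 of 16 measured genes were lower in S and 0 higher, with a median log2 ratio of -1.81. Mt4, a metallothionein of stratified epithelium, was at 12.1 in S, 272 in N and 101 in B. Of the sebaceous gland markers, 2 of 8 were higher and 4 lower, with a median of -0.75, with Scd1, a fatty acid desaturase, at 6.38 in S, 23.8 in N and 11.7 in B and Mgst1 at 36.6 in S, 14.3 in N and 24.7 in B. Of the hair bulb and matrix markers, 3 of 5 were higher and 0 lower, with a median of 1.27, and Hoxc13, a hair homeobox gene, was at 6.00 in S, 0.138 in N and 4.30 in B.

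**Figure D4:**
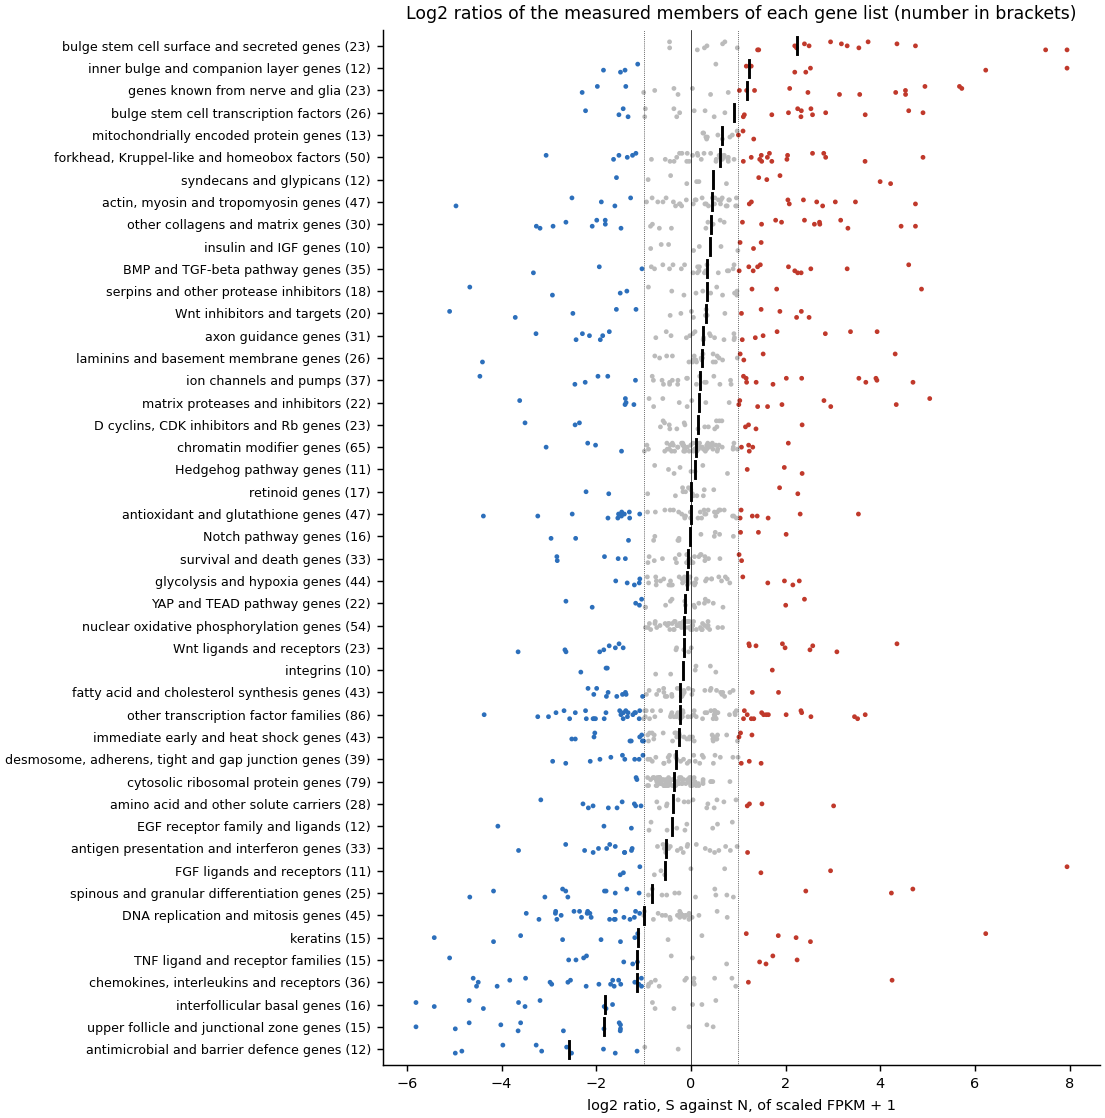
Log2 ratio of S to N (horizontal axis) for each measured member of the 46 gene lists with at least 10 measured genes (1 row a list, number of genes in brackets), with black bars at the list medians and dotted lines at the 2-fold limits. Bulge stem cell surface and secreted genes have the highest median (2.23) and antimicrobial and barrier defence genes the lowest (-2.58), while nuclear oxidative phosphorylation genes hold no member past the limits.

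Of the 54 nuclear oxidative phosphorylation genes, 0 were past the 2-fold rule in either direction, and their median was -0.14. Of the 79 cytosolic ribosomal protein genes, 2 were lower, with a median of -0.36, Rps29 (1326 in S and 2930.0 in N) and Rps3 (233 in S and 522 in N). Of the mitochondrially encoded protein genes, 3 of 13 were higher and 0 lower, with a median of 0.66. Of the glycolysis and hypoxia genes, 5 of 44 were higher and 5 lower, with a median of -0.09. Ndrg1, induced by low oxygen, was at 33.1 in S, 5.99 in N and 10.5 in B, Egln3, an oxygen-sensing enzyme, at 16.2 in S, 2.88 in N and 5.34 in B, and Pdk2, which slows the entry of pyruvate into mitochondria, at 18.6 in S, 3.99 in N and 9.77 in B. Slc2a1, the main glucose carrier, was at 20.997 in S, 49.4 in N and 22.95 in B.

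Of the fatty acid and cholesterol synthesis genes, 10 of 43 measured genes were lower in S and 2 higher, with a median log2 ratio of -0.24. Elovl5 was at 27.7 in S, 6.97 in N and 24.0 in B, and the elongases Elovl4 and Elovl7 were at 4.83 against 23.2 and 4.27 against 19.97 in S and N. Of the antioxidant and glutathione genes, 7 of 47 were higher and 12 lower, with a median of -0.01. Duoxa1, needed by a peroxide-making enzyme, was at 26.9 in S, 1.41 in N and 66.7 in B, and Gpx4, which removes lipid peroxides, at 166 in S, 481 in N and 286 in B. Txnrd1 and Txnrd2, the cytosolic and mitochondrial reductases of thioredoxin, were at 5.83 in S, 22.1 in N and 33.3 in B and at 15.1 in S, 5.09 in N and 22.3 in B, in opposite directions. Selenon, a selenoprotein, was at 2.79 in S, 34.8 in N and 2.76 in B, low in both bulge libraries. Of the retinoid genes, 2 of 17 were higher and 2 lower, and Cyp26b1, which degrades retinoic acid, was at 8.04 in S, 0.892 in N and 5.61 in B.

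Of the immediate early and heat shock genes, which respond to handling of cells, 10 of 43 measured genes were lower in S and 3 higher, with a median log2 ratio of -0.25. Egr2 and Nr4a1 were at 8.73 in S, 39.3 in N and 8.96 in B and at 6.42 in S, 39.4 in N and 19.4 in B, and Hspb8, a small heat shock protein, at 141 in S, 57.2 in N and 97.2 in B. Of the survival and death genes, 2 of 33 were higher and 5 lower, with a median of -0.06, with Casp4, an inflammatory caspase, at 0.694 in S, 11.01 in N and 0.987 in B. Of the chromatin modifiers, 5 of 65 were higher and 4 lower, with a median of 0.11. Smarca2, an ATPase of the SWI/SNF remodeller, was at 113 in S, 26.4 in N and 82.9 in B, Bmi1, a Polycomb protein, at 10.1 in S, 3.79 in N and 5.84 in B, and Chd7, a remodeller, at 1.96 in S, 7.19 in N and 4.26 in B.

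There were 16 runs of at least 4 adjacent measured protein-coding genes all past the 2-fold rule in one direction, 4 higher with 17 genes and 12 lower with 62 genes. On chromosome 10, Col6a2, Col6a1, Pcbp3, Slc19a1 and Col18a1 were all higher, of which Slc19a1 and Col18a1 overlap. Pcbp3 was at 7.31 in S and is listed at 0 in N. On chromosome 3 the ephrin genes Efna1, Efna3 and Efna4 were at 28.6 against 13.0, 15.2 against 5.32 and 12.4 against 3.65 in S and N, beside Adam15 at 31.1 against 7.48. On chromosome 16 the run was Txnrd2, Gnb1l, Rtl10 and Tbx1, in which Gnb1l and Rtl10 overlap. On chromosome 6, Cdkn1b stood beside Dusp16, Crebl2 and Gpr19.

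The lower runs included gene clusters of known families. On chromosome 15, Ly6d, Ly6e, Ly6a and Ly6c1 lay together, and in another run Krt1, Krt77, Krt79 and Krt78. On chromosome 17 the class I genes H2-D1, H2-Q4, H2-Q6, H2-Q7 and H2-Q10 were all lower, with H2-Q7 at 4.50 against 45.0 in S and N. On chromosome 10, Tnfaip3, a brake on NF-kappaB, was at 2.39 against 25.6 beside Ifngr1, Il20ra and Il22ra2, a decoy receptor, at 0.327 against 14.0. Copies of the Ly6 and H2-Q genes resemble each other. The remaining lower runs were Skint3 to Skint6 on chromosome 4, Sprr2a3 to 2310046K23Rik on chromosome 3, Hnmt to Il1rn and Bub1b to Knstrn on chromosome 2, Cpxm2 to Fam53b on chromosome 7 and the 3 histone runs.

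**Figure D5:**
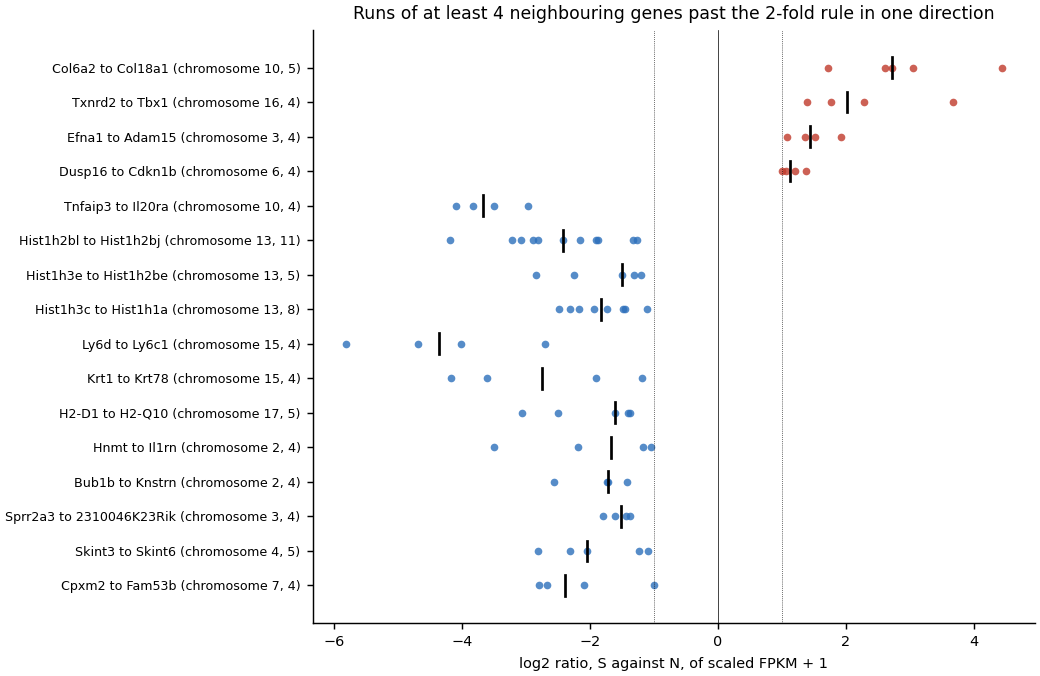
Log2 ratio of S to N (horizontal axis) for each gene in the 16 runs of at least 4 neighbouring protein-coding genes past the 2-fold rule in one direction, 1 row a run with the first and last gene named and the number of genes in brackets, and black bars at the medians. The 4 higher runs (red) hold 17 genes and the 12 lower runs (blue) 62, and the Ly6 run on chromosome 15 lies furthest towards N.

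Class of transcript and level were described next. Of protein-coding genes, 9.10% were higher and 8.91% lower, with a median of 0.06. Of 178 small nucleolar RNA genes, 17.98% were higher and 52.8% lower, with a median of -1.13. Other classes of short RNA also passed the rule more often than all genes in both directions. The shares were 25.2% and 33.3% of 123 microRNA genes and 16.7% and 37.2% of 78 small nuclear RNA genes, each with a median of 0. How well FPKM measures transcripts this short was not tested. Of 298 genes in GENCODE's TEC class, 9.73% were higher and 14.4% lower. With protein-coding genes alone, 902 were higher and 884 lower under the scaling used. The balance of the 2 directions depends on the scaling, and protein-coding genes alone were not counted under another. By mean level, 10.05% were higher and 12.3% lower between 1 and 2, and 9.78% and 10.5% between 10 and 100. Above 100, 9.71% of 340 genes were higher and 15.9% lower, with a median of -0.21. By chromosome, the largest share of higher genes was 12.7% on chromosome 6 and the largest share of lower genes 13.1% on chromosome 13, where the histone runs lie.

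The promoters of the measured protein-coding genes were compared by base composition and short motifs, over the 300 bases from 250 before to 50 after the RefSeq start (GRCm38.p6). A promoter was matched by symbol for 7887 of 9916 genes, 691 of 902 higher and 662 of 884 lower. The median promoter held 22 CpG pairs over all of these, 20 in the higher and 17 in the lower genes, and was 61.3%, 62.3% and 60.2% G or C. The AP-1 motif (TGANTCA) was in 4.43% of all, 3.91% of the higher and 8.16% of the lower, and the TATA motif (TATAAA) in 6.53%, 7.09% and 11.2%. The LHX motif (TAATTA) was in 2.09%, 1.59% and 3.02%, the GATA motif (AGATAA) in 5.77%, 5.35% and 7.85%, and the TEAD motif (GGAATG) in 11.5%, 12.6% and 13.1%. The SOX motif (ACAATG) was in 6.47%, 6.08% and 6.04%, and the E-box (CACGTG) in 10.5%, 9.55% and 9.06%. Both strands were read and matches may overlap. Of the 32851 promoters of that length in the table, 5.29% held the LHX motif, 12.6% the SOX, 7.81% the AP-1, 14.7% the TEAD, 13.6% the TATA, 7.15% the E-box and 11.2% the GATA motif. A match describes letters in the window and does not show that a factor binds there.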

How the data were processed

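FPKM values per Ensembl gene were deposited by the authors in 1 file for each of the N, S and B libraries; the header names FPKM for N and S, and for B the unit was taken from the values. Per the submitters' processing notes, the build was mm10 and the tools were Cufflinks 2.1.1, TopHat2 2.0.12 and DESeq2, whose roles are not stated there. For the annotation, the strand setting and the filters on reads, the sources used here give nothing. Libraries were amplified from poly(T) and random primers, per the labels' protocols, which keeps RNA without a poly(A) tail.

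Of 49452 rows, 49195 had a symbol and 257 were left out, and rows of 1 symbol were summed. Each library was scaled by its median ratio over the 18559 genes above 0 in N, S and B, with factors of 1.10 (N), 0.923 (S) and 0.981 (B). Genes were kept where the mean reached 1. The log2 ratio used a pseudocount of 1, and understates differences of low genes. With 1 pooled library a side there was no test. Depth was fitted to the low values of genes of 3000 bp or more in 1 exon, 190 to 231 values per library. Depth and a length subtraction of 60 to 120 bp were chosen so that most of these values were whole within 0.1 of a fragment. The share reached, 99.5% to 100%, is thus the quantity that was fitted and no separate check. Ratio intervals are 95% and cover counting error only. Biotypes came from GENCODE M21, where 91.5% of rows had the same position, and overlaps from the deposited positions. Of the 491 genes named by the rules below, 152 overlapped another gene with signal, and only some of these overlaps are stated above. Alternatives were other scalings, a pseudocount of 0.1, other level filters, protein-coding genes alone and a 4-fold rule. Python 3.11.15, numpy 2.4.6, pandas 2.3.3 and scipy 1.17.1 were used.

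The members, the 58 gene lists and the rules were chosen with earlier results of these data known. Named are the markers, per direction the 30 protein-coding genes with the largest ratio among those of at least 10 in the higher library and the 20 most abundant past the rule, up to 8 called and 3 other members per list (at least 5 in the higher library), the most abundant markers of other cell types and genes in runs of 4 or more. The genes Ackr4, Acta2, Ahr, Atp1b3, Bmp6, Calcrl, Ccr7, Cd207, Cd3e, Cdkn1c, Cdkn2b, Col1a1, Col3a1, Csf1r, Cux1, Dcn, Dct, Des, Dpt, Dusp6, Etv5, Flna, Fn1, Fzd10, Fzd5, Gata3, Grhl3, Hhip, Hoxc8, Il22ra1, Il34, Irx2, Itga5, Klf5, Krt24, Lrp6, Ltbp2, Lum, Maf, Mlana, Myh11, Nfia, Nfib, Nkd1, Nog, Ntrk3, Pdgfra, Per1, Pmel, Psmb10, Rel, Rnf43, Robo1, S100b, Skint4, Sox10, Spry1, Tagln, Tgfbr2, Tyr, Tyrp1, Wls, Wnt10a, Wnt16, Wnt3 and Wnt7b were named outside that rule, picked after their values were seen. Promoters of Krt6a and Ly6a were not analysed here.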

Additional observations from a re-analysis of the deposited data

How the results depend on the processing

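With 1 library a side, the counts have no replicate error, and amplification, the pooling of 4 mice and the sort cannot be told apart from the population. Counts of higher and lower genes were 1107 and 1260 as reported. They were 856 and 1675 as deposited, 223 and 8682 on equal totals, 962 and 1356 on equal totals without mt-Tl1 (added after seeing the data), 1228 and 1148 on the total of nuclear protein-coding genes, and 1115 and 1253 with factors from N and S alone. With a pseudocount of 0.1 they were 1578 and 1614, without the level filter 1240 and 1532, with a mean of at least 5 they were 546 and 611, with the filter over S and N alone 1116 and 1321, for protein-coding genes 902 and 884, and under a 4-fold rule 361 and 460. Scaling moved the median of all genes from 0.02 to -0.18 as deposited, -1.41 on equal totals and 0.10 on nuclear totals. Relative to that median, 4 of 50 list medians changed sign on equal totals, 3 without the level filter and 6 with a mean of at least 5, each except the keratins being under 1 in size, and 0 did under the other scalings, pseudocount and filters. List medians and single genes were not computed without mt-Tl1. Without the level filter the median of the keratins, relative to all genes, was 0.0057 in place of -1.15, because the 15 keratins below the limit then enter. Of the named genes past the 2-fold rule relative to all genes, 0 changed direction under these scalings, pseudocount and filters where they were measured. Each ratio was taken relative to the median of its own setting, which removes most of the shift that a scaling causes. Across scalings, these counts of sign and direction changes therefore cannot show that directions hold without that step. On equal totals without it, 223 genes were higher and 8682 lower. At levels near 1 the depth gives a counting SD of 11.7% to 12.5% for 2 kb, so ratios close to the limit are uncertain from counting alone. No paired analysis was possible because each group has 1 library.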
